A study of Mus musculus with 6 samples.

Results

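Apoe and 7 genes of lipoprotein handling and cholesterol efflux (Apoc1, Apoc2, Abca1, Abcg1, Nr1h3, Lpl and Lrp1) were followed in mouse islet cells given T lymphocyte exosomes. Apoe was picked because it had fallen in these same arrays, and the other genes because they act with it, so their differences between the groups are given as descriptions and support no further statement. A probe was taken for a gene if the RefSeq accession on the array belonged to that gene, and the probe with the highest mean signal stood for it. Of the 8 genes, 7 had at least 1 probe, with 9 probes in all, and all 7 were well above background on every array, among 25788 genes tested. For Apoc2 no accession on the array could be matched, and it is not analysed here.

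The cells came from islets of the pancreas of C57Bl/6N males, were dispersed and stayed in culture for 72 h. The exoNOD cells had 50 µg/ml of exosomes, vesicles that cells shed, made by T lymphocytes (CD4+CD25-) from the NOD strain, which develops autoimmune diabetes (3 arrays). The control cells had none (3 arrays). Each of the 3 experiments used its own islet and exosome preparation. The control received no exosomes of another source, so an effect of NOD exosomes and one of exosomes in general cannot be told apart.

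Apolipoprotein E is a secreted protein that carries cholesterol and other lipids and is bound by receptors of the LDL receptor family, which take the particle into the cell. In efflux, the transporters ABCA1 and ABCG1 pass cholesterol from the cell to such carriers, and the genes of both transporters and of the carrier are known targets of the liver X receptors (LXR), which sense oxidised cholesterol. Macrophages and glial cells are well known sources of apolipoprotein E. The islet holds endocrine cells together with resident macrophages, endothelial cells, fibroblasts and Schwann cells, and RNA of all of them is pooled on an array.

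Each array held 43020 spots for transcripts, of which between 78.1% and 81.8% were well above background and 0 were saturated. A level is a log2 signal minus that of the array's 75th percentile, so 0 is the signal at that percentile. A change is exoNOD minus control on this log2 scale. exoNOD replicate 1 had the same scan time as the 3 control arrays, while exoNOD replicates 2 and 3 were scanned apart from them. Arrays with 1 scan time are called a slide here, which is inferred from that time alone. Signals of different probes are not comparable, so each gene is compared only with itself.

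Apoe fell in exoNOD cells to less than the lowest control on every array. From which of its listed starts the RNA that fell was made was not tested. The sequence upstream of the outermost start is shown. It lies on the minus strand at chr7:19699189-19699438 (RefSeq, GRCm38.p6), holds the 250 bases before the outermost of the 3 starts listed, and is written 5′ to 3′.
Apoe upstream: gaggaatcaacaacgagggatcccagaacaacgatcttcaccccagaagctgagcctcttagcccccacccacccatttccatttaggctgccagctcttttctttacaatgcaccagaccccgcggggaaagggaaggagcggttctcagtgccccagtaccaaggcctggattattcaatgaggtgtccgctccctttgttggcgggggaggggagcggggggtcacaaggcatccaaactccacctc
It is printed all in lower case because it holds no match to the LXR pattern used for Abca1 further on, nor to TATAAA. The window before another of the 3 starts holds TATAAA on both strands, between bases −100 and −91.

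The Apoe probe is spotted 10 times on each array. The mean deposited signal over these spots was 1467, 1809 and 1919 in exoNOD replicates 1, 2 and 3, against 3403, 4072 and 3728 in control replicates 1, 2 and 3. The spots of 1 array differed from each other by a coefficient of variation between 1.77% and 2.35%, which is the technical spread within an array and not that between cultures. The brightest Apoe spot of any exoNOD array read 1967, and the dimmest of any control array 3322.

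On the scaled log2 axis the level of Apoe was 0.76, 1.03 and 1.11 in exoNOD cells, against 2.01, 2.21 and 2.20 in control cells. The groups did not overlap, and exoNOD replicate 1, which shares a slide with the controls, was the lowest array. Means were 0.97 ± 0.18 in exoNOD and 2.14 ± 0.11 in control cells (SD, n = 3 each). Apoe thus fell by 1.17 ± 0.12 (SE), with a 95% interval of −1.45 to −0.89 and 2.25-fold more signal in control cells. In the limma fit over all genes Apoe had an adjusted p of 0.0288. That is the value it was chosen for, so it is no separate evidence.

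The size of the fall was similar in each pair of equal replicate number, a pairing that the labels do not state. exoNOD minus control was −1.25, −1.17 and −1.09 for replicates 1, 2 and 3. Against the 3 controls of its own slide, exoNOD replicate 1 alone differed by −1.38. Apoe did not pass in limma on slide 1 alone (adjusted p = 0.507) or with slide as a block (0.353), where the difference rests on that 1 exoNOD array. The authors' deposited log2 values were 10.52, 10.83 and 10.84 in exoNOD cells, against 11.74, 11.94 and 11.95 in control cells, again with no overlap. The call itself was less firm than the size. Apoe did not pass in limma when exoNOD replicate 2 was left out (adjusted p = 0.144), nor without exoNOD replicate 3 (0.0551). It also did not pass without control replicate 1 (0.127) or control replicate 2 (0.147). Its change stayed between −1.24 and −1.14 in these settings. In RNA from mixed cells, fewer cells that make Apoe and less Apoe RNA per cell cannot be told apart.

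**Figure D1:**
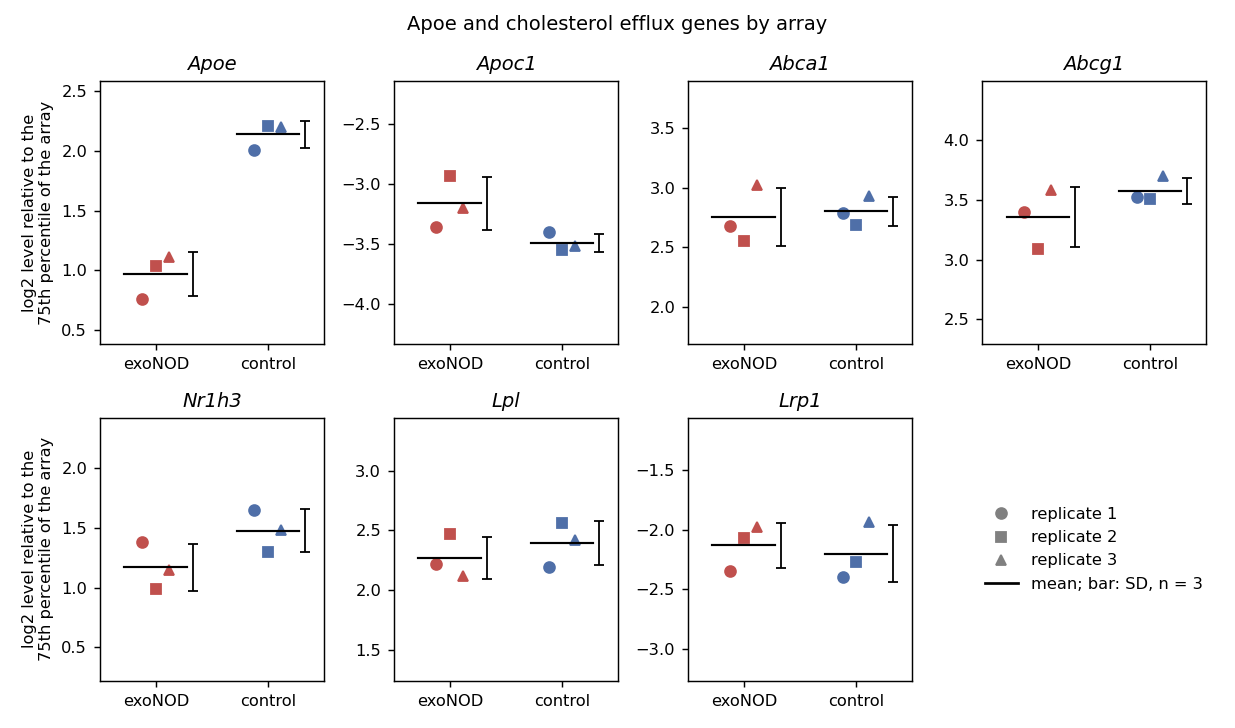
Log2 level of each gene relative to the 75th percentile of its array (y axis, the same span of 2.2 log2 units in each panel) in exoNOD and control cells; points are arrays, lines are means and bars are SD (n = 3). Apoe lies between 0.76 and 1.11 in exoNOD cells and between 2.01 and 2.21 in control cells, while the groups overlap for Abca1, Abcg1, Nr1h3, Lpl and Lrp1.

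Apoc1 encodes a small apolipoprotein that sits beside Apoe in the genome and is known to inhibit lipoprotein uptake and several lipid enzymes. Its single spot was dim, with deposited signals of 84.6, 116 and 97.1 in exoNOD cells, against 80.0, 75.5 and 70.9 in control cells. The level was −3.36, −2.93 and −3.20 in exoNOD cells, against −3.40, −3.55 and −3.52 in control cells. All 3 exoNOD arrays lay above all 3 controls, but the lowest exoNOD array, replicate 1, exceeded its control by only 0.04. The change was 0.33 ± 0.16 (SE), with a 95% interval of −0.04 to 0.69, and Apoc1 did not pass (limma adjusted p = 0.335). Unlike that of its neighbour Apoe, its difference was positive in 3 of 3 pairs of equal replicate number. Its size differed between settings: it was 0.75 with normexp correction, where the median change over all genes was 0.35, and 0.18 with quantile normalization and in the authors' values.

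Abca1 encodes the transporter that loads cholesterol onto lipid-poor apolipoproteins. Its upstream sequence is shown because it holds a pair of spaced half-sites of the kind that LXR binds. It lies on the minus strand at chr4:53159896-53160145 (RefSeq, GRCm38.p6) and is written 5′ to 3′, ending at the base before the start. Capitals mark the match.
Abca1 upstream: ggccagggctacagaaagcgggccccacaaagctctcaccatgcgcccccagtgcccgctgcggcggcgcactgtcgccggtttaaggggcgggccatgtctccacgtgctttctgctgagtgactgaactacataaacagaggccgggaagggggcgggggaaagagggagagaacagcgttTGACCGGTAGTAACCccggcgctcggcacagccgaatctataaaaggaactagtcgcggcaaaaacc
The pattern searched was a direct repeat of GGTNA with 5 bases between the copies, on both strands. The match lies at bases −67 to −53 from the start, where the complementary strand reads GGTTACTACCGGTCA. Of 32851 upstream windows of this length, 0.621% hold the pattern. The stricter repeat of AGGTCA with 4 bases between the copies was in 0.0152% of windows and not in this one. TATAAA, found on either strand in 12.4% of windows, lies at bases −29 to −24. A match describes letters only.

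Abca1 RNA had a level of 2.68, 2.56 and 3.03 in exoNOD cells, against 2.79, 2.68 and 2.93 in control cells. The highest and the lowest array both belonged to exoNOD, and the groups overlapped. The change was −0.05 ± 0.14 (SE), with a 95% interval of −0.36 to 0.26 (limma adjusted p = 0.874). That interval is no limit of detection, since with 3 arrays a group changes outside it could also fail to pass. Abcg1, which encodes the transporter that passes cholesterol to mature HDL, had a level of 3.40, 3.09 and 3.58 in exoNOD cells, against 3.52, 3.51 and 3.70 in control cells. Each exoNOD array lay below the control of its own number, by 0.12, 0.42 and 0.12, but exoNOD replicate 3 was above 2 of the 3 controls. The change was −0.22 ± 0.14 with a 95% interval of −0.53 to 0.09 (limma adjusted p = 0.431).

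Nr1h3 encodes LXR alpha, the receptor that switches on efflux genes when oxidised cholesterol builds up. Its brighter probe had a level of 1.38, 0.99 and 1.15 in exoNOD cells, against 1.65, 1.29 and 1.48 in control cells. Every exoNOD array was lower than the control of its own number, by 0.27, 0.30 and 0.34, although exoNOD replicate 1 exceeded control replicate 2. The change was −0.30 ± 0.14 (SE), with a 95% interval of −0.61 to 0.01 (limma adjusted p = 0.305). A limma fit with replicate number as a block, which removes what arrays of equal number share, gave an adjusted p of 0.0415. It did not pass with the block and quantile normalization (limma adjusted p = 0.061), with the block in the authors' values (0.0588), or with the block and any 1 pair left out (0.0501 to 0.187).

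The other Nr1h3 probe ran the opposite way. Its level was 0.44, 0.80 and 0.47 in exoNOD cells, against 0.67, 0.33 and 0.37 in control cells, a difference of 0.11 between the means. Control replicate 1 was the highest control on both probes, whereas exoNOD replicate 2 was the lowest exoNOD array on the brighter probe and the highest on the dimmer. For Nr1h3 the direction therefore depended on the probe.

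Lpl encodes lipoprotein lipase, the enzyme that frees fatty acids from circulating lipoproteins and is activated by the product of Apoc2. Its brighter probe had a level of 2.22, 2.47 and 2.12 in exoNOD cells, against 2.19, 2.56 and 2.42 in control cells. Its dimmer probe had 0.59, 1.38 and 0.38 in exoNOD cells, against 0.68, 1.43 and 0.96 in control cells. Replicate 2 was the highest array of its group on both probes and in both groups. The change was −0.12 ± 0.13 (SE) on the brighter probe, with a 95% interval of −0.42 to 0.18 (limma adjusted p = 0.650), and the means of the dimmer probe differed by −0.24.

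**Figure D2:**
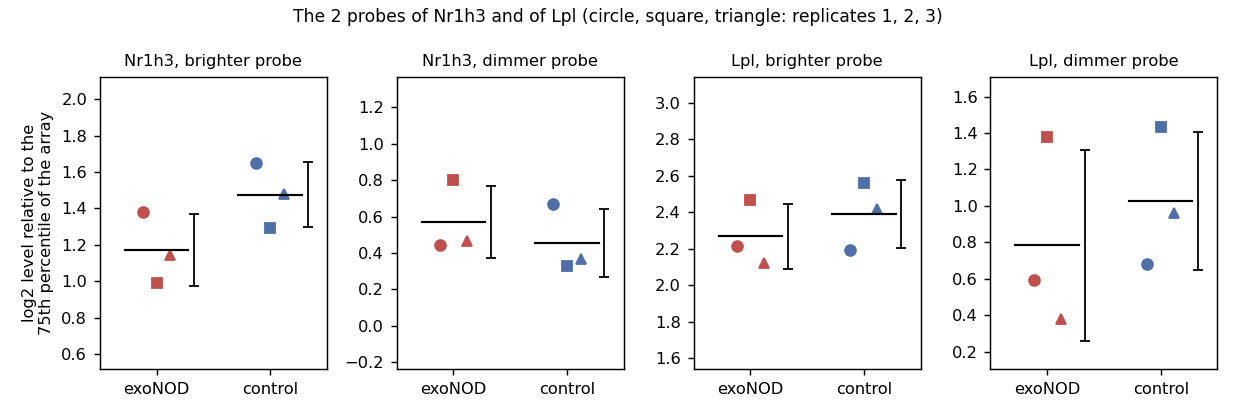
Log2 level relative to the 75th percentile of the array (y axis, the same span of 1.6 log2 units in each panel) for the 2 probes of Nr1h3 and the 2 of Lpl, in exoNOD and control cells; points are arrays, lines means and bars SD (n = 3). The exoNOD mean of Nr1h3 is below the control mean on the brighter probe and above it on the dimmer, and replicate 2 is highest in all 4 Lpl groups.

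Lrp1 encodes a large receptor of the LDL receptor family that takes up apolipoprotein E particles. Its level was −2.35, −2.07 and −1.98 in exoNOD cells, against −2.39, −2.27 and −1.94 in control cells. Each exoNOD array lay close to the control of its own number, and the groups overlapped over nearly their whole range. The change was 0.07 ± 0.17 (SE), with a 95% interval of −0.31 to 0.45 (limma adjusted p = 0.852). Its sign was not stable: it was −0.03 in the authors' values and −0.14 on slide 1 alone.

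Of the 7 genes with a probe, 5 were lower and 2 higher in exoNOD cells, with a median change of −0.12 against 0.04 over all genes. The fit called 1 of the 7, beside 0.105% of all genes called and 0.00388% called lower, which is Apoe itself. That split depended on the scaling: 26 genes were called higher and 1 lower, against 20 higher and 12 lower with quantile normalization and 18 higher and 13 lower in the authors' values. Apoe was the 1 gene of the 7 with all exoNOD arrays below all controls, as were 7.78% of all genes, and Apoc1 the 1 gene with all exoNOD arrays above, as were 14.6%, together 22.4% of all genes without overlap. An unadjusted p under 0.05 was reached by 1 of the 7, beside 16.6% of all genes. In 3 of the 7, Apoe, Abcg1 and Nr1h3, exoNOD was lower in all 3 pairs, as in 22.1% of all genes, and 51.2% of all genes had 1 sign in all 3 pairs. With the replicate block 2 of the 7 passed, Apoe (adjusted p = 0.000136) and Nr1h3, beside 8.72% of all genes. Since these genes were chosen on this comparison, nothing is read from the shares. Apart from Apoe, no change exceeded 0.33 in size. Within slide 1, exoNOD replicate 1 minus the mean of the controls was 0.13 for Apoc1, −0.13 for Abca1, −0.18 for Abcg1, −0.09 for Nr1h3, −0.18 for Lpl and −0.14 for Lrp1. Apoc1, Nr1h3 and, by little, Abcg1 differed less there than over both slides. Abca1 and Lpl differed more, and Lrp1 had the opposite sign.

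**Figure D3:**
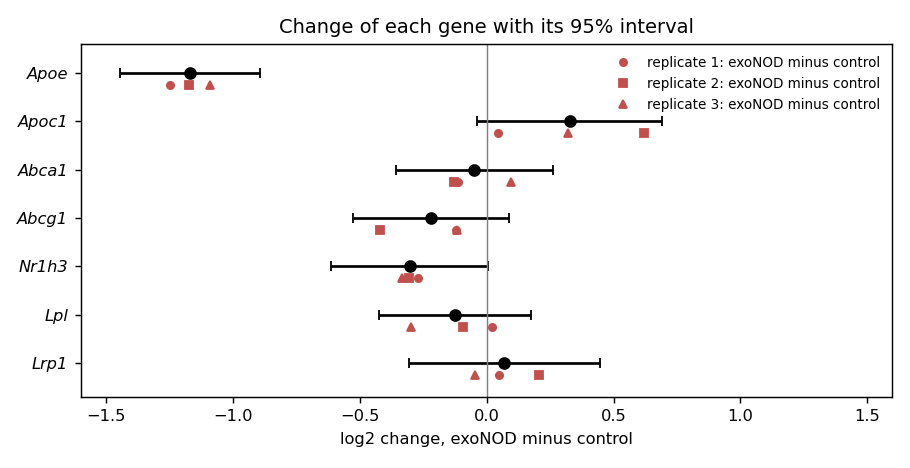
Log2 change of each gene, exoNOD minus control (x axis), as black points with 95% intervals from limma, and below each the difference of each pair of equal replicate number. The interval of Apoe runs from −1.45 to −0.89, and those of Apoc1, Abca1, Abcg1, Nr1h3, Lpl and Lrp1 include 0.

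None of the genes tested around Apoe on chromosome 7 passed. Of the 10 other protein-coding genes that RefSeq places within 100 kb, 7 were tested, with changes between −0.21 and 0.33. In limma 0 passed without the replicate block (adjusted p between 0.335 and 0.986), beside 0.105% of all genes. With the block 0 passed, beside 8.72% of all genes, so little can be read from 7 genes. Clptm1 had all exoNOD arrays below all controls, as had 7.78% of all genes. Apoc1 and Tomm40 had all of them above, as had 14.6%. Tomm40, the next gene on one side, encodes the pore of the mitochondrial outer membrane and changed by 0.07 ± 0.09 (SE). The lowest value was that of Clptm1, with −0.21 ± 0.11. Apoc4, a small apolipoprotein gene of the same cluster, was well above background on 0 of 6 arrays.

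Other genes of lipoprotein and cholesterol metabolism were read from 6 lists with 100 genes, of which 92 were tested. In limma 0 of them passed, beside 0.105% of all genes. An unadjusted p under 0.05 was reached by 10 of the 92, beside 16.6% of all genes. Of the 92, 52 were higher and 40 lower in exoNOD cells, with a median change of 0.03 against 0.04 over all genes. With the replicate block 5 rose and 3 fell, together 8.70% of the 92, beside 6.89% of all genes that rose and 1.83% that fell. The share called in these lists was near that over all genes.

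Among 12 tested genes of other apolipoproteins, 0 passed without the block. With it Apof, an apolipoprotein of HDL and LDL, rose (change 0.47, adjusted p = 0.0172 with the replicate block in limma) and Apod, a lipocalin carried on HDL and abundant in glia and fibroblasts, fell (−0.51, 0.0141). Apod had a level of 1.53, 0.95 and 0.64 in exoNOD cells, against 1.91, 1.31 and 1.42 in control cells. On slide 1 its exoNOD array lay 0.02 below the mean of the controls. Apoa5, Apoc3 and Apom, carried on triglyceride-rich particles or HDL, had changes of 0.39, 0.24 and 0.31 and passed in neither fit.

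LXR partners and targets (14 tested, median −0.11) held 0 genes past the threshold in either fit. The 4 with the lowest p included Rxrb and Rxra, partners with which LXR binds DNA, with changes of −0.21 ± 0.10 and 0.39 ± 0.20 (SE). The others were Arl4c, a small GTPase that LXR induces, with 0.32 ± 0.16, and Pltp, the phospholipid transfer protein, with 0.27 ± 0.14. Their adjusted p lay between 0.317 and 0.369 in limma. Arl4c was lower in exoNOD than in control cells in pair 1 (−0.16) and higher in the other pairs (0.52 and 0.61).

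For transport and storage of cholesterol inside the cell (15 tested, median 0.09), 0 passed without the block. Ch25h, which makes 25-hydroxycholesterol, an oxysterol made by activated macrophages, rose with the block (change 0.59, adjusted p = 0.0222 in limma). Its level was −1.91, −1.26 and −1.66 in exoNOD cells, against −2.63, −2.03 and −1.95 in control cells, so the groups did not overlap. Abca7, a close relative of Abca1, had a change of −0.28, Stard3, which binds cholesterol on endosomes, −0.24, and Cyp27a1, a sterol hydroxylase, 0.49, and none of these 3 passed in either fit. All 24 genes of cholesterol synthesis were tested (median 0.06, range −0.27 to 0.33). In either fit 0 passed, beside 0.105% of all genes without the block and 8.72% with it. The lowest p was that of Scap, the escort of the SREBP factors, with −0.27 ± 0.10, followed by the mevalonate pathway genes Pmvk (0.16) and Idi1 (0.33) and the sterol isomerase gene Ebp (−0.14).

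Lipases and lipoprotein remodelling genes (11 tested, median 0.02) held 0 calls without the block and 3 of 11 with it, beside 8.72% of all genes. Angptl4, a secreted inhibitor of lipoprotein lipase, rose with the block (change 0.83, adjusted p = 0.00197 in limma). Its level was −1.24, −1.18 and −0.16 in exoNOD cells, against −1.97, −1.98 and −1.13 in control cells. Replicate 3 was the highest in both groups, and exoNOD exceeded control by 0.73, 0.80 and 0.97 within the pairs. The hormone-sensitive lipase gene Lipe also rose with the block (0.50, 0.0464), and Mgll, the monoglyceride lipase, fell (−0.47, 0.0396). The pancreatic lipase gene Pnlip had a value of −0.38 and passed in neither fit.

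Of the lipoprotein receptors (16 tested, median −0.06), 0 passed without the block. Lrp4, a receptor for agrin, had a level of −5.46, −6.03 and −5.78 in exoNOD cells, against −4.04, −4.74 and −3.89 in control cells, with no overlap. Its change was −1.53 ± 0.27 (SE, limma adjusted p = 0.0819), and it fell with the replicate block (0.00291). Lrp2, or megalin, an uptake receptor of absorptive epithelia, was well above background on 3 of 3 exoNOD arrays and 0 of 3 control arrays. Its exoNOD signal was at least 1.99-fold higher than the lowest signal well above background (adjusted p = 0.0825, and 0.0143 with the replicate block, where it rose). Lrp6, a co-receptor of Wnt signals, and Lrpap1, the chaperone that keeps LDL receptor relatives from binding too early, had changes of −0.29 and −0.26 and passed in neither fit. Each of these 2 genes had all exoNOD arrays below all controls. Of the 16 receptors tested, 3 lay below in this way, beside 7.78% of all genes, and 1 lay above, beside 14.6%. Within slide 1, exoNOD replicate 1 minus the mean of the controls was −1.24 for Lrp4, 0.66 for Apof, 0.46 for Angptl4, 0.29 for Ch25h, 0.21 for Lipe and −0.01 for Mgll.

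**Figure D4:**
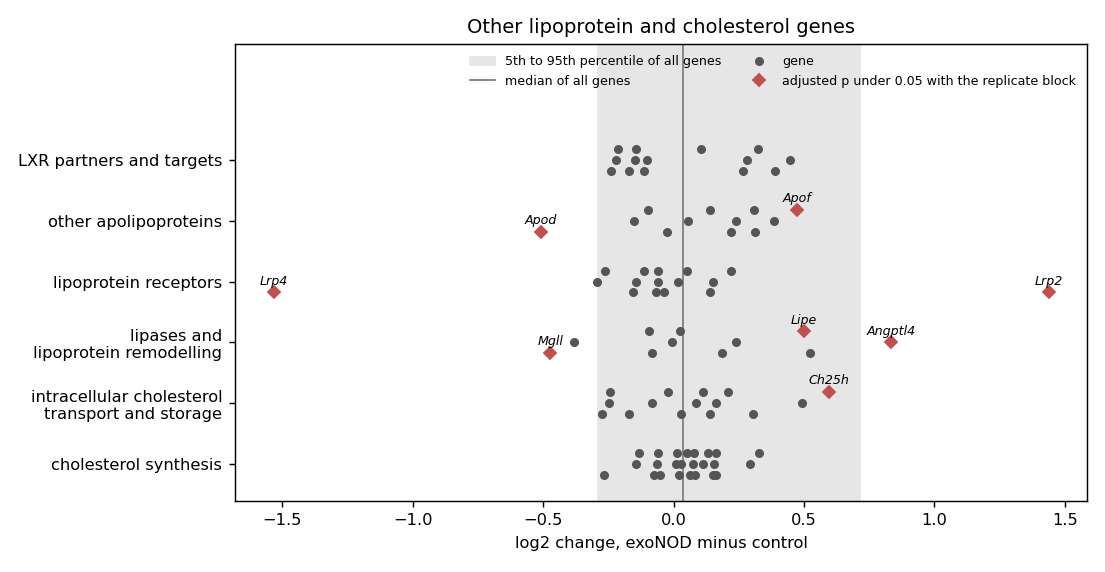
Log2 change, exoNOD minus control (x axis), of the tested genes in 6 lists of lipoprotein and cholesterol genes (rows); each point is a gene, red diamonds passed with the replicate block in limma, and the grey band spans the 5th to 95th percentile of all genes (−0.29 to 0.71). Lrp4 lies at −1.53, Lrp2 is drawn at its fitted value although 0 of 3 control arrays had it well above background, and the 24 cholesterol synthesis genes lie between −0.27 and 0.33.

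Of 2336 genes with an established symbol and a range of at least 1 log2 unit over the arrays, those with a profile most like that of Apoe were Srpx, Gdf6, Ccdc80, Cd72, Slamf9 and Gas6 (Pearson r over 6 arrays between 0.87 and 0.95, a description that the group difference dominates). Srpx and Ccdc80 encode secreted proteins of the matrix, Gdf6 a growth factor of the BMP family, Cd72 a lectin-like receptor of B lymphocytes and myeloid cells, Slamf9 a receptor of myeloid cells, and Gas6 a ligand of the TAM receptor kinases. Srpx had a level of −4.21, −3.91 and −3.86 in exoNOD cells, against −2.96, −3.12 and −3.30 in control cells. Slamf9 had −2.98, −2.84 and −3.35 in exoNOD cells, against −1.64, −1.56 and −2.24 in control cells. The groups did not overlap for any of the 6, with changes between −1.25 and −0.70, and none passed without the block (limma adjusted p between 0.0815 and 0.126), while all 6 passed with it (between 0.000814 and 0.0210). Over all genes, 7.78% had all exoNOD arrays below all controls and 8.72% passed with the block. Since the 6 were selected to resemble Apoe, their direction is set by that choice. Their lack of overlap and their calls cannot be told apart from it either.

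Macrophage markers were lower in part. Each was read from its brightest probe, although Itgam and Csf1r have 3 probes and Cx3cr1 and Adgre1 have 2. The other probes of these genes were not compared. Of 15 markers 13 were tested, 10 with a lower and 3 with a higher mean in exoNOD cells, with a median change of −0.04; for Cd68 no accession was matched, and Cd163 was well above background on 1 array. In limma 0 of the 13 passed without the block. With it Itgam (−0.50, adjusted p = 0.00896), Cx3cr1 (−1.11, 0.00486), Adgre1 (−0.87, 0.0158) and Aif1 (−0.62, 0.00655), genes of resident macrophages, fell, and the mannose receptor gene Mrc1 (2.20, 0.00176) rose, beside 8.72% of all genes called. Mrc1 was well above background on 3 of 3 exoNOD arrays but on 1 of 3 control arrays, so its control level was measured on that array alone and the size of its change is uncertain. Adgre1, which encodes F4/80, had a level of −2.32, −1.22 and −2.65 in exoNOD cells, against −1.33, −0.94 and −1.31 in control cells, so that exoNOD replicate 2 lay above 2 controls.

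Other macrophage genes passed in neither fit. The complement genes C1qb and C1qc had values of 0.02 ± 0.17 and −0.04 ± 0.21 (SE), the receptor gene Csf1r −0.02 ± 0.14, and Trem2, a lipid-sensing receptor that binds apolipoprotein E, 0.03 ± 0.21. C1qa, the third C1q gene, had −0.27 ± 0.22 and was lower in exoNOD cells in all 3 pairs, by 0.24, 0.23 and 0.34 (limma adjusted p = 0.0594 with the replicate block). The summed signal of the 13 markers, relative to the 75th percentile, lay between 22.8 and 25.4 on exoNOD arrays and between 29.4 and 31.8 on control arrays. Without Itgam, the brightest probe, it lay between 9.61 and 13.4 on exoNOD arrays and between 11.2 and 13.1 on control arrays, and the ranges overlapped. The part of macrophage number or state in the fall of Apoe was not tested.

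Markers of other cell types were set beside Apoe in the same way. For Schwann cells the summed signal of 10 markers was 8.03 to 9.13 in exoNOD cells and 8.59 to 8.95 in control cells. Fibroblast and stellate cell markers (11 genes) gave 64.5 to 90.8 in exoNOD and 54.4 to 79.8 in control cells, and endothelial markers (10 genes) 10.7 to 11.6 in exoNOD and 10.6 to 12.3 in control cells. These ranges overlapped. Those of alpha and beta cell markers did not: alpha cell markers (5 genes) summed to 387 to 390 in exoNOD and 407 to 428 in control cells, and beta cell markers (10 genes) to 1074 to 1095 in exoNOD and 1107 to 1175 in control cells. Delta cell markers (4 genes) gave 96.5 to 121 in exoNOD and 108 to 140 in control cells, and acinar markers (5 genes) 1.66 to 2.29 in exoNOD and 1.61 to 2.11 in control cells. Without the hormone genes, Gcg among the alpha cell markers and Ins1, Ins2 and Iapp among the beta cell markers, the sums overlapped. They were then 5.97 to 7.42 in exoNOD and 6.00 to 6.63 in control cells for the other 4 alpha cell markers, and 47.4 to 74.5 in exoNOD and 56.6 to 91.0 in control cells for the other 7 beta cell markers. With the replicate block 6 of the 10 beta cell markers fell, and 0 of the alpha or delta cell markers passed. Of the 10 endothelial markers 4 fell and 1 rose with the block, although the sums overlapped. Among Schwann cell markers 2 rose, among fibroblast and stellate cell markers 2, and among acinar markers 1. Over all genes 1.83% fell and 6.89% rose with the block. The part of these shifts in the fall of Apoe was not tested.

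**Figure D5:**
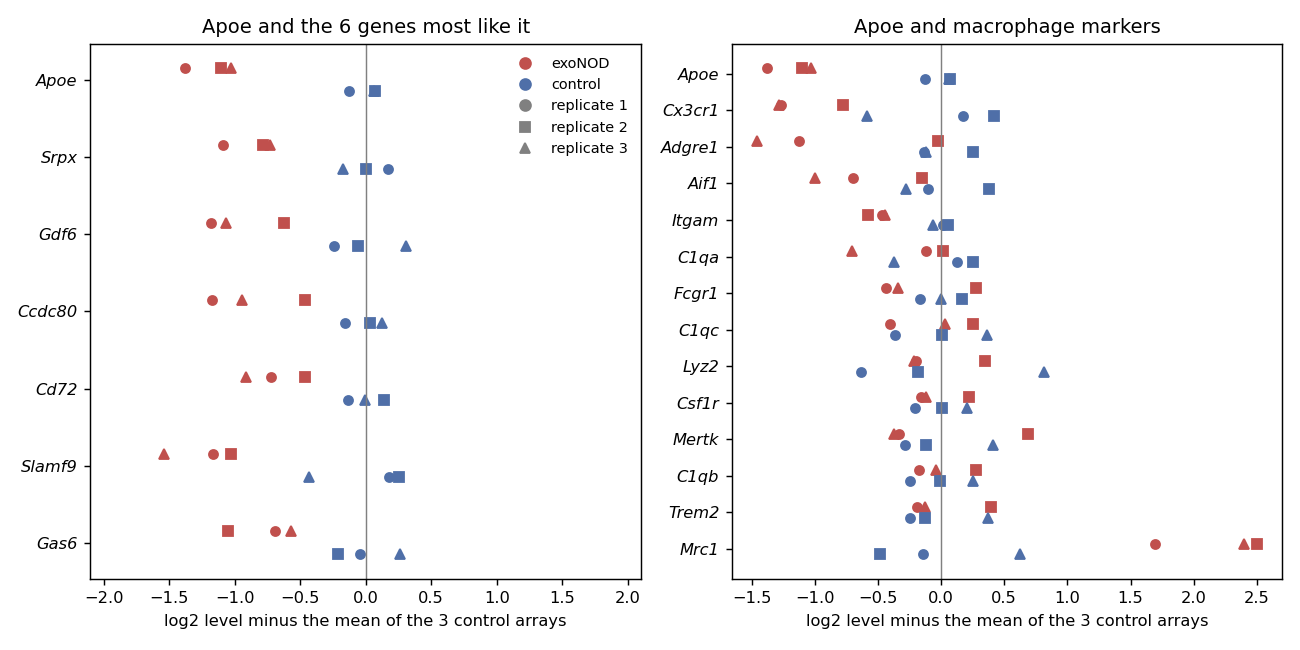
Log2 level minus the mean of the 3 control arrays (x axis) for Apoe with the 6 genes most like it (left) and with 13 macrophage markers (right); points are arrays, red for exoNOD and blue for control, with shapes for replicates 1, 2 and 3. Slamf9 and Cx3cr1 lie below the controls on every exoNOD array, as Apoe does, whereas C1qb, C1qc, Csf1r and Trem2 overlap and Mrc1 lies above.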

How the data were processed

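RNA of 3 exoNOD and 3 control cultures was read on Agilent mouse arrays in 1 colour (Cy3), 1 array a culture. Per the file headers, the deposited processed signal is an intensity from which Agilent Feature Extraction 11.0.1.1 took background and spatial trend, with no scaling between arrays; the deposited spot flags are 0 or 1. The authors' deposited series values are on a log2 scale; how they were normalized is not given in the sources used here.

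The log2 processed signal was averaged over the spots of a probe, leaving out control spots and spots marked as outliers (0.381% to 0.618% per array), and the 75th percentile of the array (812 to 890) was subtracted. A probe was kept if every array of either group had it well above background (31063 of 39429). RefSeq accessions gave 27234 probes a symbol (GRCm38.p6 table). The array files name another mouse build, so gene positions were used only for neighbours and for the RefSeq sequences. The brightest probe stood for its gene (25788 genes, 17256 with a symbol).

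Groups were compared with limma 3.58.1 (lmFit, eBayes with trend) in R 4.3.3 (files read with data.table, version 1.17.8), with Benjamini-Hochberg adjustment over all genes and a threshold of 0.05; the fit was tested on simulated data. Intervals are at 95%. The members and lists were chosen with earlier results of these data known. Named are all members, up to 4 genes of each list of lipid genes by lowest p, neighbours of Apoe within 100 kb and the 6 genes most like Apoe; the macrophage genes, Mgll and Apof were named after their values were seen. A gene that the rule takes is not reported here. The lists were LXR partners and targets, other apolipoproteins, lipoprotein receptors, lipases and lipoprotein remodelling, intracellular cholesterol transport and storage, cholesterol synthesis, and markers of macrophages, Schwann cells, fibroblasts with stellate cells, and endothelial, alpha, beta, delta and acinar cells.

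Deviations from the group mean correlated across genes at 0.366, 0.281 and 0.480 between arrays of equal replicate number and between −0.341 and 0.00876 otherwise. All 3 lie above 0.1, so equal numbers were taken as pairs, which the labels do not state, in the pair differences and the replicate block. The main fit left this pairing out. Values with the replicate block are given where they change a call. Normexp used the median spot signal, since the files hold no mean signal. The arrays' number limits the precision.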

Additional observations from a re-analysis of the deposited data

How the results depend on the processing

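Apoe was lower in exoNOD cells in all 23 alternatives tried, by −1.38 to −1.07. Apoe passed in 16 of them, counting those with the block and a pair left out, where few arrays carry the limma fit. It did not pass without a filter on dim probes (−1.17, adjusted p = 0.102), with slide as a block (−1.38, 0.353) or on slide 1 alone (−1.38, 0.507), where 1 exoNOD array is set against 3 controls and assumed to vary like the others. Leaving out 1 array, or 1 pair with the block, gave −1.24 to −1.07. The members called were 0 in these 3 settings, 2 with the replicate block, and 0 to 1 with an array or pair left out.

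Over all genes 27 were called. The count was 13 when arrays were scaled by their median signal (the median change over genes was then −0.11), 162 with normexp correction, 0 without the filter (4638 at an unadjusted p under 0.05), 0 with slide as a block (933), 0 on slide 1 alone (1143) and 233 with array weights. With the replicate block it was 2249, and 1201 or 1231 with quantile normalization or the authors' values added. Leaving out 1 array gave 0 without exoNOD replicate 2 (3052 at an unadjusted p under 0.05), control replicate 1 (2556) or control replicate 2 (2424), 1272 when exoNOD replicate 1 was dropped, 2 when exoNOD replicate 3 was, and 76 when control replicate 3 was. With the block, leaving out pair 1, 2 or 3 gave 4171, 447 and 1738. The 0 related genes called became 8 with the replicate block, 6 with the block and quantile normalization, 6 with the block in the authors' values, 1 with array weights, 0 to 4 with an array left out and 2 to 13 with the block and a pair left out.

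Apoc1 was higher, and Abcg1 and Lpl lower, in every alternative, without passing in any. Nr1h3 was lower in 23 of 24 alternatives, the exception being its second probe, and passed in 1. Abca1 was positive in 3 of 23 and Lrp1 negative in 9 of 23. The use of outlier spots, second probes and endocrine sums without hormone genes was added after seeing the data. The 7 measured members were well above background on all 6 arrays, while Lrp2 has only a lower bound and Mrc1 rests on 1 control array.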
